A study of Mus musculus with 11 samples.

Results

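The genes described here are 33 members of the machinery that folds proteins in the endoplasmic reticulum (ER) and clears those that fail to fold. They were chosen with earlier results of these data known and were found by symbol in the count table. There each of the 33 symbols stood on 1 gene ID among 55487 IDs. All 33 members passed the filter on low counts that left 15135 genes for testing. They were measured by RNA sequencing in bone marrow-derived macrophages, cells grown from marrow of C57BL/6J mice aged 2 to 5 months by 5 to 6 days of culture with CMG-conditioned medium and then kept in a medium with less of it. The 7 control libraries came from macrophages given 0.00 µg/ml CYR61 and the 4 CYR61 libraries from macrophages given 0.50 µg/ml of this protein for 24 h. CYR61 (CCN1) is a protein of the extracellular matrix that cells sense through integrins. All libraries share the strain and the culture protocol, and the labels name no genetic change. The labels do not say which mouse or culture each library came from, so the spread between libraries, on which every p-value rests, may be partly technical.

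The ER is where secreted and membrane proteins enter the secretory pathway through the Sec61 channel, receive their sugars and disulfide bonds and fold with the help of chaperones. When unfolded proteins build up, the chaperone BiP (encoded by Hspa5) leaves the sensors IRE1, ATF6 and PERK. IRE1 then splices Xbp1 mRNA, ATF6 is cut to release a transcription factor, and PERK slows translation and favours ATF4. XBP1 and cleaved ATF6 switch on chaperone genes through promoter elements such as the ER stress response element (ERSE), and proteins that cannot fold are drawn back to the cytosol and degraded, a process called ER-associated degradation. Macrophages secrete large amounts of enzymes and cytokines, and XBP1 is known to act in their responses to Toll-like receptor ligands.

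Total counts ran from 14912123 to 21047654 in control libraries and from 17390272 to 20760322 in CYR61 libraries. No library repeated another of its group: the chi-square per gene, about 1 for counting noise alone, was 2.9 to 10.6 between controls. CYR61 replicate 4 stood apart from its group, at 19.2 to 33.4 against 3.48 to 9.07 between the other CYR61 libraries. Ribosomal RNA made up 2.41% of counts in CYR61 replicate 4 and 0.246 to 0.797% elsewhere. The chi-square kept ribosomal RNA genes, so it includes that difference, and how much of it comes from there was not tested. The mitochondrial share was lowest in CYR61 replicate 1 (0.953%) and 1.24 to 1.5% elsewhere. Without CYR61 replicate 4, 13 members rose, and 692 of all genes tested were called higher. Without CYR61 replicate 1 these counts were 17 and 831. With all libraries they were 14 and 806. The macrophage label was met by its markers, and all 8 were detected. The growth factor receptor gene Csf1r was at 2867 to 3119.9 CPM (median 2996) in controls. In CYR61 replicates 1 to 4 it was at 3317, 3319, 3199.8 and 3248 CPM. Of the 8 markers, 5 rose with CYR61, against 5.33% of all genes tested. Together the 8 summed to 22338 to 23730 CPM in controls and 24708 to 26922 CPM with CYR61; the part of this shift in the results was not tested. Markers of T cells, neutrophils, fibroblasts and dendritic cells summed to at most 2.36 CPM in any library, with Cd3e, Ly6g and Lum at 0. The B and plasma cell list, of interest because plasma cells are rich in ER, summed to 54.9 to 68.1 CPM in controls and 45.5 to 49.7 CPM with CYR61, nearly all of it from Ighm, with Igkc and the plasma cell chaperone gene Mzb1 at 0. The endothelial list (144 to 157 and 117 to 137 CPM) was nearly all Vwf. Erythroid and megakaryocyte genes summed to 5.51 to 9.16 and 9.20 to 11.6 CPM. In these lists Ighm and Vwf fell and S100a8 and Pf4 rose, with S100a8 at only 12 to 32 counts in a library. The part of these genes in the results was not tested.

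Macrophages treated with CYR61 had more mRNA for calreticulin, BiP, GRP94 and most of the listed disulfide isomerases of the ER. Of the 33 members, 14 rose, 0 fell and 19 did not pass at an adjusted p of 0.05 (edgeR quasi-likelihood test, Benjamini-Hochberg over all genes tested). Over all 15135 genes tested, 5.33% were called higher, 2.63% lower and 7.96% in either direction. The members are well expressed, and 32 of them had a mean of at least 10 CPM; among the 8658 genes at that level, 7.87% were called higher and 3.83% lower. Because the members were chosen with earlier results of these data known, comparisons with all genes, here and below, are not independent tests. The rises were small, from 1.08-fold to 1.32-fold. The largest was that of calreticulin (Calr). The 14 were 5 of 10 Hsp70 and Hsp90 chaperones and cofactors, both lectin chaperones, 6 of 8 disulfide isomerases and other folding enzymes and 1 of 3 translocon genes. None came from the 7 members of ER-associated degradation or from Xbp1, Atf6 and Ern1. At an unadjusted p of 0.05 the members numbered 23 higher and 1 lower, against 11.2% and 9.26% of all genes tested. DESeq2 called 17 higher and 0 lower, against 6.06% and 2.93% of the genes to which it gave an adjusted p. The limma-voom counts were 14 and 0, against 5.23% and 2.47%. In bulk RNA, more RNA per cell and more cells of one kind cannot be told apart.

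The median log2 fold change was 0.12 over the 33 members and -0.0076 over all genes tested, and 28 members had a positive value (84.8%, against 47.5% of all genes tested). All 4 CYR61 libraries stood above all 7 controls in 13 members, against 4.65% of all genes tested and 6.79% of those with a mean of at least 10 CPM; 12 of the 13 were among the 14 that rose. In 0 members did all 4 stand below (2.5% of all genes tested). The CPM of the 33 members together ran from 4452 to 4835 in controls and from 5158 to 5287 with CYR61.

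**Figure D1:**
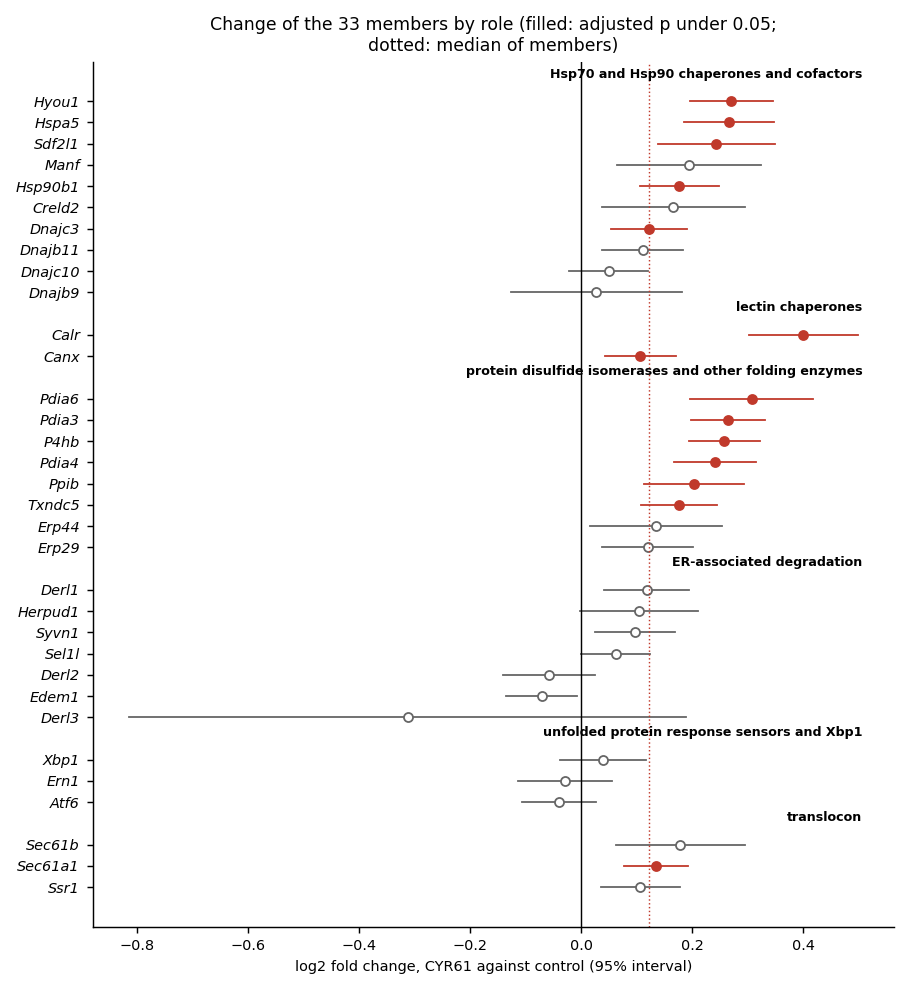
Log2 fold change (x axis) of each of the 33 members, grouped by role, with its 95% interval; filled points passed an adjusted p of 0.05, and the dotted line is the members' median of 0.12. The 14 filled points all lie to the right of 0, and no degradation gene or sensor gene is among them.

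Among the Hsp70 and Hsp90 proteins and their cofactors, 5 of 10 members rose. Hspa5 encodes BiP, the ER's Hsp70, which binds unfolded chains and holds the stress sensors inactive. Control libraries ranged from 309 to 362 CPM (median 332) for Hspa5, and CYR61 replicates 1 to 4 held 389, 413, 395 and 405 CPM. Every CYR61 library was above every control, a 1.20-fold rise (95% interval 1.14 to 1.27; log2 fold change 0.27, SE 0.038, adjusted p = 0.00019). Hyou1 encodes a large Hsp70 relative that exchanges the nucleotide on BiP. It ranged from 87.3 to 99.5 CPM (median 95.4) in controls and stood at 117, 114, 109 and 116 CPM with CYR61, again without overlap. Its rise was 1.21-fold (95% interval 1.14 to 1.27; log2 fold change 0.27, SE 0.036, adjusted p = 8.2e-05). Hsp90b1 encodes GRP94, the ER's Hsp90, whose clients include integrins and Toll-like receptors. Its controls lay at 336 to 372 CPM (median 355) and its CYR61 libraries at 380.0, 411, 409 and 414 CPM; replicate 1 was the lowest of these and still above the controls. GRP94 mRNA rose 1.13-fold (95% interval 1.08 to 1.19; log2 fold change 0.18, SE 0.033, adjusted p = 0.00218).

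The J-domain and BiP-cofactor genes were mixed. Sdf2l1, a partner of the J-domain protein ERdj3 that keeps substrates soluble, ran from 36.8 to 46.8 CPM (median 42.2) in controls and stood at 51.4, 49.5, 47.6 and 50.2 CPM with CYR61. The groups did not overlap, and Sdf2l1 rose 1.18-fold (95% interval 1.10 to 1.27; log2 fold change 0.24, SE 0.05, adjusted p = 0.00425). Dnajc3 encodes the J-domain protein p58IPK, and it ranged from 69.8 to 75.8 CPM (median 73.7) in controls against 76.5, 84.2, 79.4 and 80.5 CPM with CYR61. Its groups were apart by a small margin, with a 1.09-fold rise (log2 fold change 0.12, SE 0.032, adjusted p = 0.0245). The call failed in 7 of 22 alternatives (adjusted p 0.00944 to 0.147), among them leaving out control replicate 3 (adjusted p = 0.0518) or, of the CYR61 libraries, replicate 2 (0.128), 3 (0.0528) or 4 (0.0659). Dnajb11, which encodes ERdj3 itself, was at 62.0 ± 2.59 and 66.9 ± 0.97 CPM (n = 7 and 4) and did not pass (adjusted p = 0.0601); it passed without control replicate 5 (adjusted p = 0.0196). Manf, a secreted ER protein that binds BiP, was at 23.6 ± 2.03 and 27.1 ± 1.23 CPM (adjusted p = 0.0625), and passed in 7 of 22 alternatives, with a lowest adjusted p of 0.037 on leaving out control replicate 6; leaving out control replicate 2 or 7, or the first CYR61 library, had the same effect. Creld2, a stress-inducible ER protein with disulfide isomerase activity, was at 15.7 ± 0.905 and 17.6 ± 1.33 CPM (adjusted p = 0.118) and passed in no alternative. Dnajc10, a disulfide reductase that works in degradation, was at 90.7 ± 3.48 and 93.8 ± 3.01 CPM (adjusted p = 0.454). Dnajb9 encodes ERdj4, which keeps IRE1 bound to BiP and is known as a strong target of XBP1. Its controls ranged from 15.3 to 18.8 CPM (median 17.5) and its CYR61 libraries held 15.2, 17.0, 18.2 and 19.7 CPM. The CYR61 range covered that of the controls (log2 fold change 0.027, 95% interval -0.13 to 0.18, adjusted p = 0.882), and the sign changed with scaling by library size alone.

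The lectin chaperones calreticulin and calnexin bind the trimmed sugars of new glycoproteins; calreticulin is soluble and also stores calcium, and calnexin spans the membrane. Calr ranged from 416 to 534 CPM (median 462) in controls. In CYR61 replicates 1 to 4 it held 626, 625, 593 and 619 CPM. The lowest of these was above the highest control, and Calr rose 1.32-fold (95% interval 1.23 to 1.41; log2 fold change 0.40, SE 0.047, adjusted p = 2.4e-05). Canx ranged from 427 to 446 CPM (median 440.4) in controls and stood at 443, 477, 474 and 488 CPM with CYR61. Replicate 1 lay among the controls and the other CYR61 libraries above them. Canx rose 1.08-fold (95% interval 1.03 to 1.12; log2 fold change 0.11, SE 0.03, adjusted p = 0.0376), the smallest of the 14 rises. It did not pass in 12 of 22 alternatives (adjusted p 0.00299 to 0.203). Among these were the removal of 1 control (replicate 1, 2, 3 or 5, adjusted p 0.0552 to 0.0772) and of 1 CYR61 library (replicate 2, 3 or 4, adjusted p 0.108 to 0.127). The intervals of the 2 folds did not overlap; the difference between them was not tested.

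Disulfide isomerases make, break and rearrange the disulfide bonds of secretory proteins, and with the other folding enzymes listed here 6 of 8 rose. P4hb encodes the archetypal enzyme PDI. Controls ranged from 328 to 360.3 CPM (median 332), and CYR61 replicates 1 to 4 held 405, 394, 396 and 408 CPM. Control replicate 7 stood apart from the other controls, and every CYR61 library was above it (1.20-fold; 95% interval 1.14 to 1.25; log2 fold change 0.26, SE 0.03, adjusted p = 2.72e-05). Pdia3 encodes ERp57, which works on glycoproteins held by calreticulin and calnexin and in the loading of MHC class I. It ranged from 276 to 302 CPM (median 288) in controls and stood at 338, 337, 354 and 363 CPM with CYR61. No library overlapped, and the rise was 1.20-fold (95% interval 1.15 to 1.26; log2 fold change 0.26, SE 0.032, adjusted p = 3.25e-05).

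Pdia6, a disulfide isomerase known to restrain IRE1 signalling, ran from 68.7 to 90.6 CPM (median 75.4) in controls, the highest being replicate 7, and stood at 97.0, 95.2, 93.1 and 96.8 CPM with CYR61. It rose 1.24-fold (95% interval 1.15 to 1.34; log2 fold change 0.31, SE 0.052, adjusted p = 0.000901), second to Calr among the members. Pdia4, an enzyme with several thioredoxin domains also called ERp72, was at 61.6 to 70.5 CPM (median 65.5) in controls and 75.3, 78.6, 78.0 and 78.5 CPM with CYR61. The groups were apart (1.18-fold; 95% interval 1.12 to 1.24; log2 fold change 0.24, SE 0.035, adjusted p = 0.000227). Txndc5, also called ERp46, was at 73.5 to 80.7 CPM (median 78.6) in controls and 89.9, 88.9, 84.5 and 88.4 CPM with CYR61. It rose 1.13-fold without overlap (95% interval 1.08 to 1.19; log2 fold change 0.18, SE 0.033, adjusted p = 0.0017). Ppib encodes cyclophilin B, a prolyl isomerase that speeds the folding of collagen and other chains. Its controls ranged from 109 to 129.9 CPM (median 116) and its CYR61 libraries held 127, 135, 142 and 139 CPM. CYR61 replicate 1 lay below control replicate 7, and the rise was 1.15-fold (95% interval 1.08 to 1.23; log2 fold change 0.20, SE 0.043, adjusted p = 0.00517). Erp29, a PDI-like protein without an active site for disulfide exchange, was at 195 ± 8.06 and 212 ± 11.5 CPM (adjusted p = 0.0702). It passed by DESeq2 (adjusted p = 0.0325), without control replicate 2 (adjusted p = 0.0481) and without CYR61 replicate 2 (adjusted p = 0.0482). Erp44, which retains and retrieves ER oxidases and unassembled antibodies, was at 33.8 ± 2.72 and 37.1 ± 1.80 CPM and passed in no alternative (adjusted p = 0.177).

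**Figure D2:**
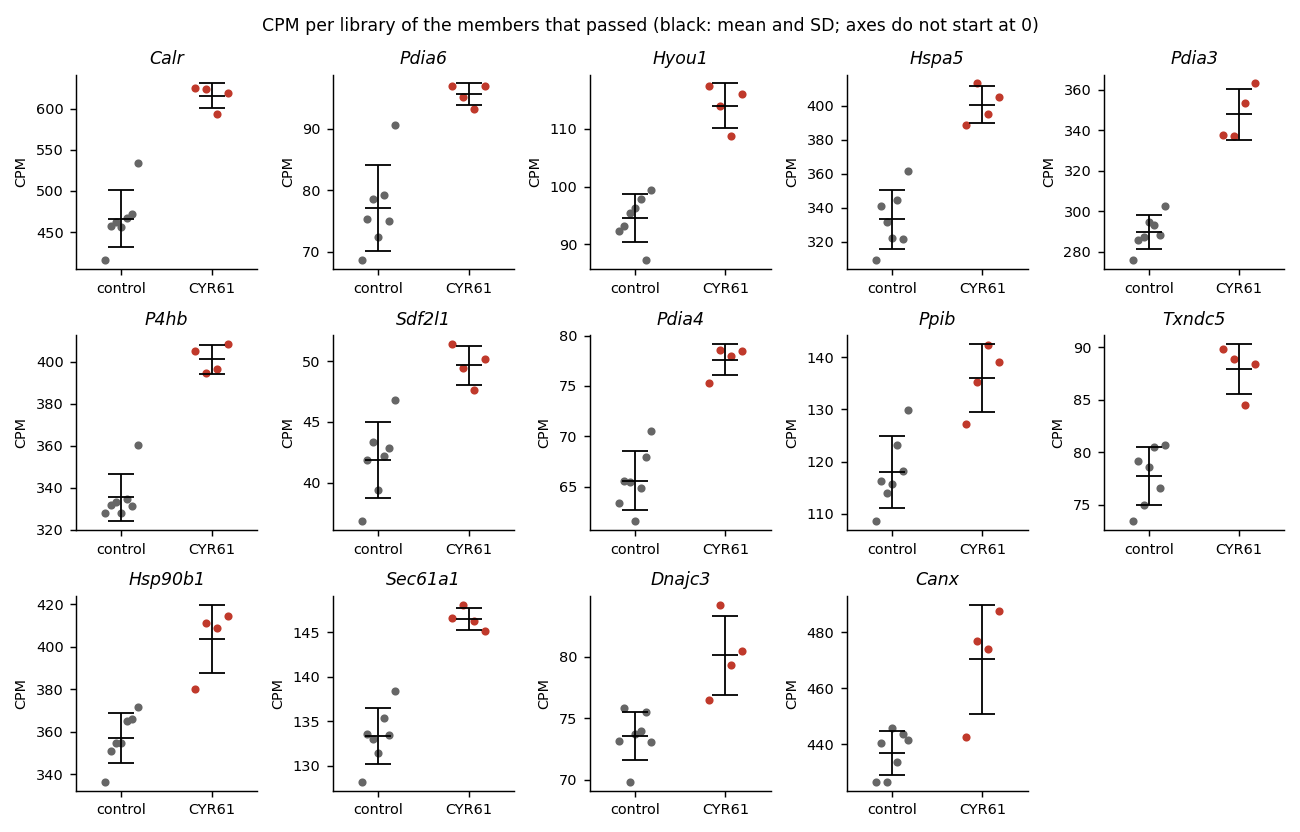
CPM (y axis, not starting at 0) in each control and CYR61 library for the 14 members that rose, ordered by fold change, with the group mean and SD in black. The groups are apart in 12 of the 14 genes and overlap in Ppib and Canx.

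Promoter sequence was read for the members because many of them moved together. RefSeq promoters (GRCm38.p6, 250 bases before to 50 after each gene start) were listed for 27 of the 33 members; Hyou1, Manf, Erp29, Derl1, Atf6 and Sec61a1 had no entry. The ERSE was searched on both strands as CCAAT and CCACG with any 9 bases between them. It was found for 9 of the 27 members (33.3%), against 37 of all 27025 genes with a promoter (0.137%) and 39 of all 32851 promoters of the same length (0.119%). The 9 were Hspa5, Hsp90b1, Dnajc3, Calr, Canx and Pdia6, which rose, and Creld2, Derl3 and Syvn1, which did not pass. That is 6 of the 12 listed members that rose and 3 of the 15 listed members that did not pass. These are matches of letters and not measured binding sites, and no match in the other promoters says only that these letters are not in that window. The ERSE is known from promoters of chaperone genes, so a high share among the members follows from how they were chosen. That share gives no information on the response to CYR61. The shares among members that rose and members that did not pass were not compared by a test. Each match is given with 10 bases on either side, read 5′ to 3′ on the strand where it reads CCAAT first, with the fixed letters of the element in capitals and the window's place in the genome before the colon.
Hspa5, chr2:34772015-34772053, plus strand: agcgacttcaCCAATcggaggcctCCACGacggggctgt
Hsp90b1, chr10:86705523-86705561, plus strand: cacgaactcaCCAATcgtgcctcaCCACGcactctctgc
Hsp90b1, chr10:86705628-86705666, minus strand: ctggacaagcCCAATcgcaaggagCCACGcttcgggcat
Dnajc3, chr14:118937817-118937855, plus strand: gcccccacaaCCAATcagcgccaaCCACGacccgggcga
Calr, chr8:84847065-84847103, plus strand: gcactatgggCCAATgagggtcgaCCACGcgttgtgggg
Canx, chr11:50325790-50325828, minus strand: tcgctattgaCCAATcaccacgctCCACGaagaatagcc
Pdia6, chr12:17266481-17266519, plus strand: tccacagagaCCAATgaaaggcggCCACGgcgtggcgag
Creld2, chr15:88819510-88819548, minus strand: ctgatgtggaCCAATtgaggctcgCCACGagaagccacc
Derl3, chr10:75893232-75893270, minus strand: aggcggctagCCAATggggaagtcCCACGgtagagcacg
Syvn1, chr19:6046522-6046560, plus strand: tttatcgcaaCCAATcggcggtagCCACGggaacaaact
In the gene's own direction the element read CCAAT first for Hspa5, Dnajc3, Canx, Pdia6 and Syvn1 and in reverse for Calr, Creld2 and Derl3, and Hsp90b1 had 1 of each. The end of the match nearest the gene start lay 26 bases before it in Syvn1, 47 in Hspa5, 144 in Calr and 194 in the farther match of Hsp90b1.

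The shorter element ERSE-II (ATTGG, any 1 base, then CCACG) was found in Herpud1 and Dnajb11, which did not pass, and in 0.0365% of all promoters. In Dnajb11 it lay after the gene start. The window of Herpud1 was the following.
Herpud1, chr8:94386367-94386397, plus strand: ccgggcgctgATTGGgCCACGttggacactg
The unfolded protein response element TGACGTGG was found in Txndc5 alone among the 27 members and in 0.676% of all promoters. The whole stretch of 250 bases before the start of Hspa5 (chr2:34771840-34772089, plus strand) is printed because this promoter is the classical case of the response, with the letters of its 1 full ERSE in capitals.
Hspa5: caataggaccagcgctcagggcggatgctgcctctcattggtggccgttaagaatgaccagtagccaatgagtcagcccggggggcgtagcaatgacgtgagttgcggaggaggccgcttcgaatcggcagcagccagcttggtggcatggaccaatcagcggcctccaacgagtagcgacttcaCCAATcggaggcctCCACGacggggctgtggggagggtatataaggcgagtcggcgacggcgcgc

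**Figure D3:**
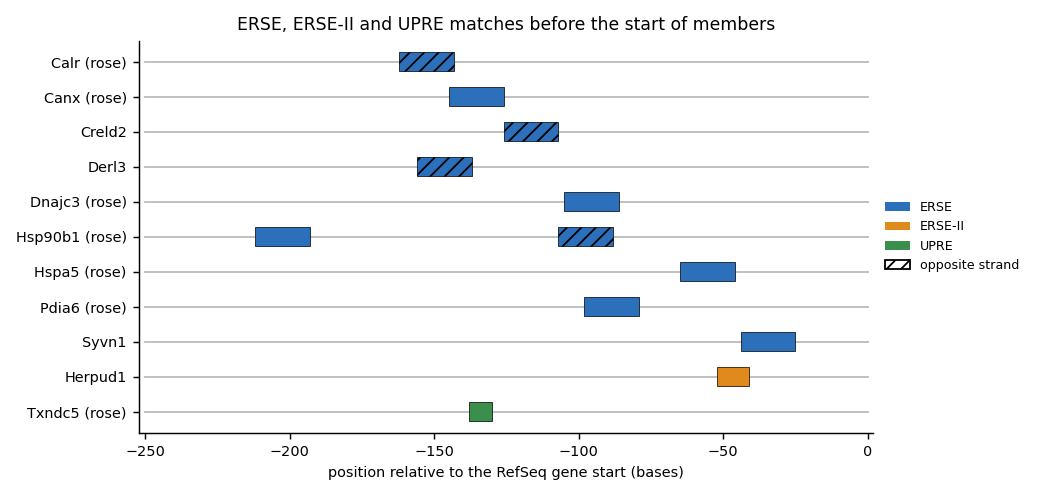
Matches to ERSE, ERSE-II and UPRE before the RefSeq gene start of members (x axis, bases from the start), with matches on the opposite strand hatched and members that rose marked. The ERSE matches lie between 212 and 26 bases before the start, in 6 genes that rose and 3 that did not pass.

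The translocon carries new chains into the ER. Sec61a1 encodes the channel itself. Controls ranged from 128 to 138 CPM (median 134) and CYR61 replicates 1 to 4 held 147, 148, 146 and 145 CPM. The groups were apart and the rise was 1.10-fold (95% interval 1.05 to 1.14; log2 fold change 0.14, SE 0.028, adjusted p = 0.00408). The channel's small subunit gene Sec61b was at 23.3 ± 1.43 and 26.4 ± 1.58 CPM (adjusted p = 0.0557). It passed on leaving out CYR61 replicate 1 (adjusted p = 0.0242), control replicate 2 (0.0487) or control replicate 7 (0.0476). Ssr1, a subunit of the translocon-associated TRAP complex, was at 94.6 ± 2.77 and 102 ± 4.81 CPM (adjusted p = 0.0648) and passed by DESeq2 (adjusted p = 0.0494) and without CYR61 replicate 1 (adjusted p = 0.0152).

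Genes of ER-associated degradation did not pass: of 7 members 0 rose and 0 fell by edgeR (5.33% and 2.63% of all genes tested). At an unadjusted p of 0.05, 2 were higher and 1 lower (11.2% and 9.26% of all genes tested). DESeq2 called 1 higher and limma-voom 0 (6.06% and 5.23% of the genes of each). At these shares 7 genes are too few for a count of 0 to describe the group. Syvn1 encodes HRD1, the ubiquitin ligase at the centre of the pathway, and was at 61.2 ± 1.31 and 65.5 ± 3.30 CPM (adjusted p = 0.0971); without CYR61 replicate 4 it passed (adjusted p = 0.04). Its partner Sel1l was at 196 ± 4.38 and 205 ± 5.97 CPM (adjusted p = 0.246). Derl1, a membrane channel component, was at 86.3 to 97.0 CPM (median 91.8) in controls and 106, 101, 97.8 and 97.0 CPM with CYR61. All CYR61 libraries lay above the controls by a narrow margin, without passing (adjusted p = 0.0561). It passed by DESeq2 and without control replicate 4 or 7, with a lowest adjusted p of 0.0301. Its relative Derl2 was at 41.8 ± 1.84 and 40.1 ± 0.709 CPM (adjusted p = 0.445), and Derl3, with only 13 to 29 counts in a library, was at 1.25 ± 0.301 and 0.995 ± 0.295 CPM, a difference not detectable at this depth (adjusted p = 0.514).

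Herpud1, a stress-inducible scaffold of the HRD1 complex, ranged from 35.6 to 41.8 CPM (median 39.4) in controls. With CYR61 it was at 40.7, 46.7, 41.6 and 39.3 CPM. Only replicate 2 stood clear of the controls, and the gene did not pass (log2 fold change 0.10, 95% interval -0.0021 to 0.21, adjusted p = 0.255). Edem1, which picks glycoproteins with trimmed mannose for degradation, was at 387 ± 8.92 and 369 ± 12.8 CPM. Its log2 fold change of -0.071 had an adjusted p of 0.182, and with scaling by library size alone it was called lower (adjusted p = 0.0273). The 7 degradation genes summed to 807 to 831 CPM in controls and 809 to 838 CPM with CYR61, ranges that overlap. Edem1 made up much of that sum, and its log2 fold change was negative. Without Edem1, a choice not planned in advance, the other 6 summed to 423 to 444 CPM in controls and 446 to 458 CPM with CYR61, without overlap. These sums were not tested.

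The sensor genes and Xbp1 overlapped between groups. Xbp1, the target of IRE1, ranged from 108 to 124 CPM (median 118) in controls and stood at 118, 118, 121 and 121 CPM with CYR61. The log2 fold change was 0.04 (95% interval -0.038 to 0.12, adjusted p = 0.605) and changed sign with scaling by library size alone. Gene counts do not separate spliced from unspliced Xbp1 mRNA. Atf6 ranged from 141 to 154 CPM (median 150.1) in controls against 139, 149.6, 146 and 144 CPM with CYR61. All 4 values were within or below the control range (log2 fold change -0.04, 95% interval -0.11 to 0.026, adjusted p = 0.529). Ern1, which encodes IRE1 alpha, ranged from 93.1 to 107 CPM (median 100.3) in controls and was at 103, 102, 90.3 and 96.5 CPM with CYR61. Its interval also spanned 0 (-0.11 to 0.055; log2 fold change -0.03, adjusted p = 0.742), and its sign changed without CYR61 replicate 3. For these 3 genes 0 passed at an unadjusted p of 0.05, by DESeq2 and by limma-voom. At that unadjusted p 11.2% of all genes tested were higher and 9.26% lower, so 0 of 3 does not describe the group. The highest upper bound, 0.117 on the log2 scale for Xbp1, lay below the lower bounds of Calr, P4hb, Pdia3, Pdia4, Pdia6, Hyou1, Hspa5 and Sdf2l1. It lay above those of Ppib, Txndc5, Hsp90b1, Sec61a1, Dnajc3 and Canx (0.043 to 0.113), which also rose. Differences between genes were not tested.

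Per kilobase of merged exon, the control levels of the members spanned from 162 ± 12.2 CPM per kilobase for Calr to 0.627 ± 0.151 for Derl3 (mean ± SD, n = 7). Calr was followed by P4hb (117 ± 3.93), Canx (93.1 ± 1.70), Pdia3 (92.3 ± 2.65), Hsp90b1 (88.6 ± 2.92) and Hspa5 (78.8 ± 4.15 CPM per kilobase), and these genes at ranks 1 to 6 all rose. Canx and Pdia3 differed by less than their spread. The rise of Canx was the smallest of the 14 (1.08-fold) and was lost in 12 of 22 alternatives. Whether level and rise are linked was not tested. Edem1, at rank 7 with 60.0 ± 1.38 CPM per kilobase, was the most abundant member that did not pass. Xbp1 was at rank 9 (35.8 ± 1.80 CPM per kilobase) and Hyou1 at rank 24 (13.1 ± 0.566 CPM per kilobase). Exon lengths came from an annotation that may differ from the authors', so these levels are approximate.

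The 14 genes that rose largely shared their highest and lowest control libraries. Control replicate 7 had the highest control value in 12 of the 14 and control replicate 1 the lowest in 11. Relative to the control mean, the median of the 14 genes was 0.949 in control replicate 1, 0.983 to 1.01 in control replicates 2 to 6 and 1.06 in control replicate 7. In the CYR61 libraries it was 1.16 to 1.20. The median over the 19 other members was 0.991 to 1.01 in controls and 1.03 to 1.06 with CYR61. The members were split by their calls, so a gap between the 2 medians with CYR61 follows from the split. Without both control replicates 1 and 7, a choice made after seeing the data, 12 members rose and 0 fell. In that setting 785 of all genes tested were called higher, against 806 with all libraries. Without control replicate 7 alone 17 members rose, and the count over all genes tested was higher too, at 903. CYR61 replicate 1 had the lowest CYR61 value in 6 of the 14 and the highest in 5.

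**Figure D4:**
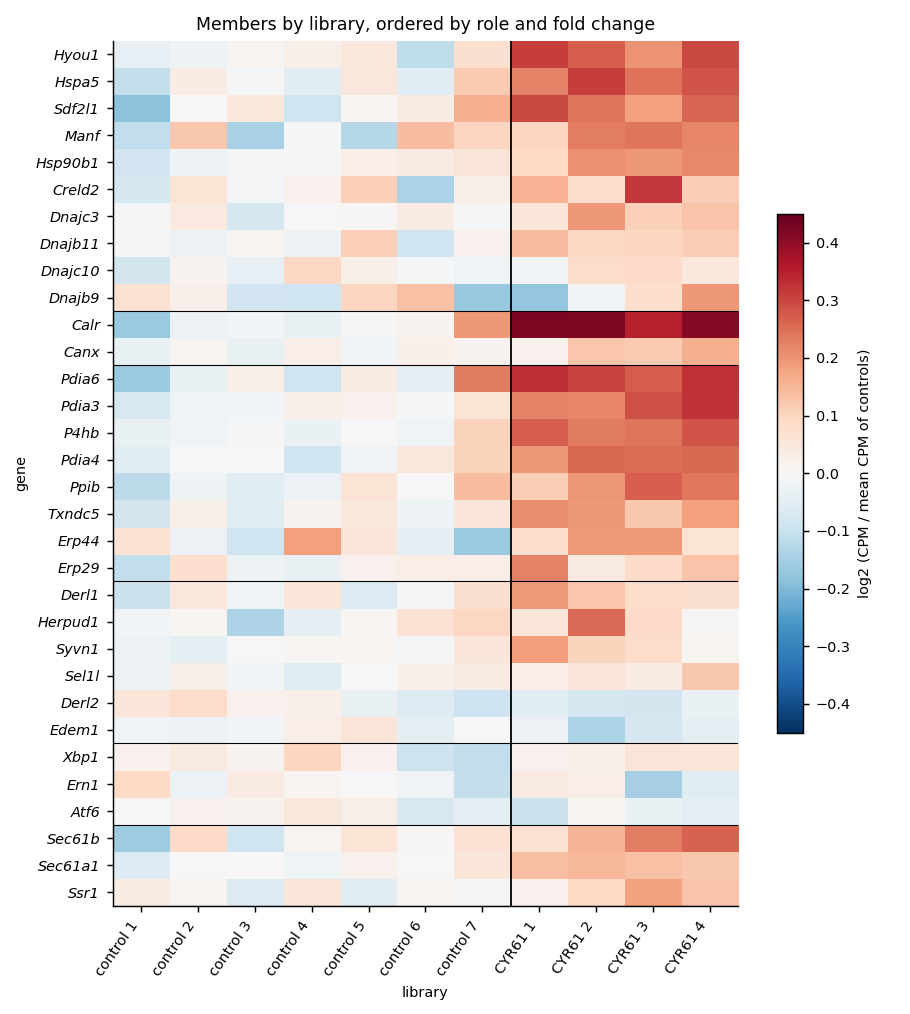
Level of each member but Derl3 (rows, by role) in each library (columns) as the log2 of CPM over the control mean. The CYR61 columns are red for most chaperone and isomerase rows and pale for the sensors, and control replicate 7 is the reddest control column, at a median of 1.06 times the control mean over the 14 genes that rose.

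A wider list of 111 genes of the same pathway was set beside the members, and 108 could be tested; Serpinh1, Fkbp10 and Fkbp11 were too low. Of the 108, 10 rose (9.26%) and 1 fell, and 97 did not pass. That share is near the background, 5.33% of all genes tested and 7.87% of those with a mean of at least 10 CPM, so the calls that follow describe single genes and not the list. The median log2 fold change of the 108 was 0.060, against -0.0076 over all genes tested. A positive value was found in 80 of the 108, against 47.5% of all genes tested. At an unadjusted p of 0.05 by edgeR, 32 were higher and 3 lower, against 11.2% and 9.26% of all genes tested. A shift of the list as a whole was not tested. The count of rises depended on the scaling and on single libraries. It was 3 with scaling by library size alone, 6 without CYR61 replicate 3 and 16 without CYR61 replicate 1. In these settings 529, 616 and 831 of all genes tested were called higher, against 806 with TMM and all libraries. Among 16 genes of N-glycosylation and the calnexin cycle, 4 rose and 0 fell by edgeR, DESeq2 and limma-voom alike. Over all genes these tools called 5.33%, 6.06% and 5.23% higher and 2.63%, 2.93% and 2.47% lower. At an unadjusted p of 0.05 by edgeR, 8 of the 16 were higher and 0 lower, against 11.2% and 9.26% of all genes tested. Rpn1, a subunit of the oligosaccharyltransferase that adds the sugar, went from 152 ± 5.40 to 177 ± 5.47 CPM (adjusted p = 0.000267). Its partners Rpn2 (202 ± 10.3 to 225 ± 3.92 CPM, adjusted p = 0.016) and Ddost (124 ± 8.72 to 139 ± 1.55 CPM, adjusted p = 0.0254) rose as well. Ddost did not pass with any 1 CYR61 library left out (adjusted p up to 0.0608), and Rpn2 did not pass with CYR61 replicate 3 left out (adjusted p = 0.0521). Ganab, which encodes the glucosidase that trims sugars for calreticulin and calnexin, rose too (124 ± 1.70 to 135 ± 2.54 CPM, adjusted p = 0.00643).

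Serp1, which stabilises new membrane proteins at the translocon, was the 1 of 17 translocation and signal peptide genes to rise, from 165 ± 5.98 to 196 ± 9.66 CPM (adjusted p = 0.000248). Surf4, a cargo receptor for ER exit, rose from 209 ± 5.31 to 238 ± 5.13 CPM (adjusted p = 0.000339), 1 of 6 retrieval and exit genes. Of 27 further degradation genes 3 rose: Vcp, the ATPase that pulls proteins from the membrane (284 ± 5.98 to 310.4 ± 5.71 CPM, adjusted p = 0.00743), and, near the threshold, Edem2 (64.0 ± 1.69 to 69.0 ± 2.39 CPM, adjusted p = 0.0469) and the lectin gene Os9 (211 ± 7.78 to 228 ± 4.81 CPM, adjusted p = 0.0484). Edem2 did not pass in 18 and Os9 in 12 of 22 alternatives, and either could be lost by leaving out 1 library of several (adjusted p up to 0.144 and 0.11). Of 27 tested cofactors and folding enzymes, Cnpy3, a partner of GRP94 in the folding of Toll-like receptors, rose (59.1 ± 2.08 to 65.7 ± 2.36 CPM, adjusted p = 0.00998). The oxidase gene Ero1b, listed under its older symbol Ero1lb, fell from 62.4 ± 2.83 to 57.2 ± 1.25 CPM (adjusted p = 0.0495), a call lost in 16 of 22 alternatives, with any 1 CYR61 library or any 1 of control replicates 1 to 6 left out among them (adjusted p up to 0.133).

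In the PERK and ATF4 arm, with the other sensors and their proteases, 0 of 15 genes passed by edgeR, DESeq2 or limma-voom. By edgeR, 5.33% of all genes tested were called higher and 2.63% lower. At an unadjusted p of 0.05, 2 of the 15 were higher and 1 lower, against 11.2% and 9.26% of all genes tested. These counts are near those shares and do not describe the arm. Eif2ak3, which encodes PERK, was at 50.8 ± 2.25 and 51.0 ± 1.38 CPM (log2 fold change 0.0098, 95% interval -0.07 to 0.089). Atf4 was at 95.1 ± 2.78 and 98.8 ± 3.06 CPM (log2 fold change 0.055, 95% interval -0.011 to 0.12). Ddit3, the stress and death factor CHOP, stood on 2 gene IDs, 1 of them at 0 in every library; the other was at 16.7 ± 1.38 and 17.0 ± 0.852 CPM (log2 fold change 0.018, 95% interval -0.12 to 0.16). The signs for Eif2ak3 and Ddit3 changed with scaling by library size alone.

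**Figure D5:**
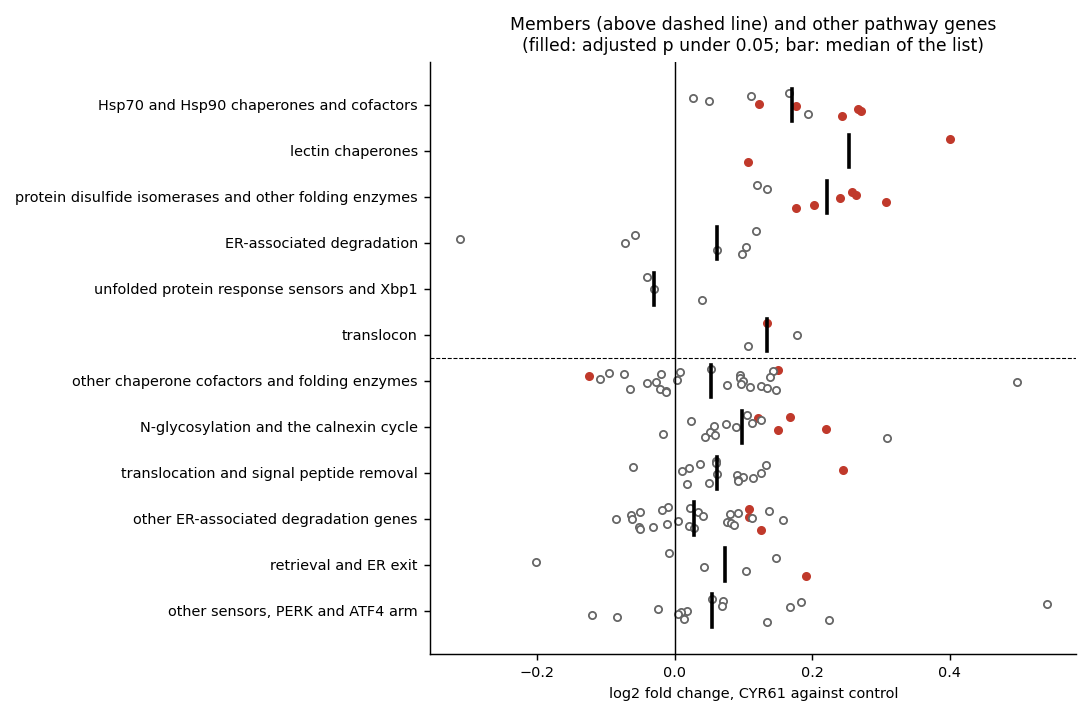
Log2 fold change (x axis) of the tested genes in the 6 role groups of members, above the dashed line, and in the 6 lists of other pathway genes, below it; filled points passed an adjusted p of 0.05 and bars are list medians. The isomerase and lectin groups have the highest medians, 0.22 and 0.25, and the sensor group lies at -0.030.

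In the authors' deposited table all 33 members were listed, and 21 were higher and 1 lower at an adjusted p of 0.05, against 7.85% and 4.44% of its 13999 genes. The 14 members called here were among the 21. The 7 others in the authors' deposited table were Manf, Erp29, Sel1l, Syvn1, Derl1, Sec61b and Ssr1, and the lower one was Edem1 (log2 fold change -0.0819, adjusted p = 0.0282). Sel1l, Syvn1, Derl1 and Edem1 are degradation members, so that group had calls in both directions there. Xbp1, Atf6, Ern1, Dnajb9 and Herpud1 did not pass in the authors' deposited table either.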

How the data were processed

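Per the labels' protocols, total RNA was depleted of ribosomal RNA, primed at random and read from both ends. DRAGEN was used upstream, per the submitters' processing notes; no source used here gives its version or role, the genome build, the annotation or the strand setting. Per-gene expected counts, not normalized, were deposited by the authors. In 10 members, Hsp90b1, Txndc5, Ppib and Sec61a1 among the 14 that rose, counts were not whole in some libraries, as arises where reads are shared between features. The authors also deposited a table of log2 fold changes and p-values; no source used here gives its method.

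The count table had 55774 rows and 287 repeated rows were dropped. After rounding, edgeR 4.0.16 in R 4.3.3 was run (filterByExpr, TMM, glmQLFit, glmQLFTest, all 11 libraries, no covariates), adjusted by Benjamini-Hochberg over 15135 genes. CPM are TMM-scaled, SEs are the log2 fold change over the root of F, and the common biological coefficient of variation was 5.64%. The procedure was tested on simulated data. The smallest fold simulated was larger than every rise of a member but that of Calr, so recovery of smaller changes was not tested. Alternatives used DESeq2 1.42.0, limma-voom (limma 3.58.1), other scalings and filters, a replicate block and left-out libraries. The members and lists were chosen with earlier results of these data known. Values in every library are given for members that passed and for Hspa5, Xbp1, Atf6, Ern1, Dnajb9, Herpud1 and Canx; of the other pathway genes, up to 4 of lowest p per list and direction among those that passed, and Eif2ak3, Atf4 and Ddit3, are named. Derl1 was added after its values were seen. Exon lengths came from GENCODE M21 by Ensembl gene ID, and promoters from RefSeq by symbol.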

Additional observations from a re-analysis of the deposited data

Results flagged for a closer look

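In 4 of 66 sets of values (33 members in each group) 1 library stood far from the others; chance alone gives about 1 set in 20. CYR61 replicate 1 was the low one for Hsp90b1 (380.0 CPM, the other CYR61 libraries at 409 to 414), Manf (25.2 CPM, the others at 27.5 to 27.9) and Pdia4 (75.3 CPM, the others at 78.0 to 78.6). Control replicate 7 was the high one for P4hb (360.3 CPM, the other controls at 328 to 335).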

How the results depend on the processing

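Over 22 alternatives the count of members that rose stayed between 12 and 17, and 11 of the 14 rises passed in every one; the exceptions were Canx (lost in 12), Dnajc3 (lost in 7) and Sdf2l1 (lost without CYR61 replicates 1 and 4 together, adjusted p = 0.0745). Of the 19 members that did not pass, 8 passed in at least 1 alternative. With each library left out in turn, 788 to 1372 genes were called (583 to 903 higher, 205 to 469 lower, the lowest of each without CYR61 replicate 2), 12 to 17 members rose and 0 fell, and 6 to 16 other pathway genes rose and 0 to 2 fell. Scaling by library size alone gave 529 genes higher and 938 lower (36.1% of calls higher, against 66.9% with TMM), 12 members higher and 1 lower (Edem1), and 3 other pathway genes higher and 3 lower. The 1 pathway gene that fell, Ero1b, left a count of 0 with RLE factors, without the filter, without ribosomal RNA and mitochondrial genes and with both CYR61 replicate 1 and replicate 4 left out. The count was 2 when genes under 1 CPM were dropped and when both control replicate 1 and replicate 7 were left out. The cause of these changes was not tested. No pairing was seen by the 4 replicate numbers shared by the groups: deviations of same-numbered libraries correlated at -0.034 to 0.034. Of the 4, 1 correlated best with its own number. Between libraries of unlike number the highest value was 0.133, for control replicate 3 with CYR61 replicate 1. Correlations over all genes tested cannot exclude a shared mouse or culture. With the replicate number as a block in the 8 libraries with shared numbers, 1261 genes were called, 14 members rose and 2 other pathway genes fell. In the same 8 libraries without the block these counts were 1267, 14 and 2.

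Among the members and the pathway genes named above, the sign changed only for genes that passed nowhere. For the other pathway genes it was not examined. With scaling by library size alone the log2 fold changes became -0.018 for Dnajb9, -0.0052 for Xbp1, -0.035 for Eif2ak3 and -0.026 for Ddit3. For Xbp1 it was -0.0050 with the replicate block and -0.0055 in the same 8 libraries without it. Leaving out 1 library in turn, the log2 fold change ranged from -0.032 to 0.089 for Dnajb9, -0.052 to 0.0068 for Ern1, -0.0087 to 0.027 for Eif2ak3 and -0.015 to 0.049 for Ddit3. Without CYR61 replicates 1 and 4 together Ddit3 was at -0.028. Depth limits Derl3 most among the members (13 to 29 counts); how far counting error limits other low members, such as Creld2 (226 to 336 counts), was not tested.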
